A study of Mus musculus with 18 samples.

Results

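Gene expression in the infarcted mouse heart was compared between 72 h and 24 h after permanent ligation of a coronary artery, over 3 mice at each time and every gene of the count table. Each library came from 1 male C57BL/6JR mouse aged 12 weeks, so the 6 libraries compared were 6 of the 18 in the series. In both groups the left anterior descending artery, which feeds the front wall and apex of the left ventricle, was tied, and RNA was taken from the infarcted left ventricle. A sham group of 3 mice, in which the thread was passed under the artery and left untied, gives the uninjured level where one is quoted. All animals had anaesthesia and an open-chest operation, and none had its vessel reopened, so the model is one of infarction without reperfusion. The anaesthetic dose recorded in the sample descriptions rises from sample to sample, and its part in the differences was not tested. The labels name cardiomyocytes as the cell type, yet no step that separates cells is described. The libraries held RNA of many cell types: the 6 ventricular cardiomyocyte markers summed to 16010 to 26280 CPM at 24 h and 9251 to 13110 CPM at 72 h, beside abundant macrophage and fibroblast genes.

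As background, a permanent infarct heals in overlapping phases. Dying cardiomyocytes first draw in neutrophils, which carry granule proteins and release cytokines; monocytes follow and become macrophages that engulf dead cells and break them down in lysosomes. Fibroblasts next divide, switch on contractile and matrix genes and lay down collagen, which is folded in the endoplasmic reticulum, trimmed outside the cell and cross-linked into a scar. Muscle that survives at the border relies on fatty acid oxidation and shows stretch-induced stress genes. The span between 24 h and 72 h covers the turn from the first of these phases to the next.

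Libraries held 18.3 M to 25.1 M counts at 24 h and 21.9 M to 23.7 M at 72 h. Of 30583 genes in the table, 16311 had enough counts to be tested, and 8231 (50.5%) differed at an edgeR adjusted p under 0.05, 3980 higher (24.4%) and 4251 lower (26.1%) at 72 h. A change of at least 2-fold was found for 2003 higher (12.3%) and 1119 lower genes (6.86%), and one of at least 8-fold for 299 higher and 37 lower genes. The larger changes were thus mostly increases, although the median log2 fold change over all genes tested was -0.03. Counts of list members called higher or lower below are to be read beside these shares of 24.4% and 26.1% of all genes. Levels below are TMM-scaled CPM (counts per 1e+06), in the order of replicates 1, 2 and 3. A log2 change is the log2 fold change of 72 h over 24 h with its standard error (SE). The 3 libraries at 24 h were less alike than those at 72 h: the median SD of log2 CPM was 0.249 against 0.144. Replicate 3 at 24 h had the highest neutrophil and cytokine RNA and replicate 2 the lowest, and the neutrophil, cytokine and monocyte lists are given without replicate 3 as well. The mitochondrial genome gave 21.5% ± 3.33 (SD, n = 3) of counts at 24 h and 9.71% ± 1.14 at 72 h (exact two-sided permutation p = 0.1, the smallest that 3 against 3 mice allow). The split between higher and lower genes depended on the scaling: when each library was scaled to its total count alone, the median of all genes moved to 0.37 and 81.5% of the 8936 calls were higher, against 48.4% with TMM scaling. Nothing in the labels says whether mice of a group shared a cage or an operation day. The edgeR p-values measure only the spread between mice within groups, taken over all 18 libraries of the fit. In groups not compared here, the median SD of log2 CPM ran from 0.12 (sham) to 0.22 (6 h), below that at 24 h. With only the 6 libraries compared in the fit, 6648 genes were called in place of 8231.

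The genes with the largest increases were those of scar matrix, lipid-handling macrophages and dividing cells. Col24a1, a minor fibrillar collagen (chr3:145292472-145552011, mm10), had 0 counts in all 3 libraries at 24 h and 169, 169 and 192 counts at 72 h, at least 42.5-fold higher against a floor of 3 counts in each 24 h library. Col11a1, a chain of a fibril-seeding collagen (chr3:114030540-114220718), had 3, 4 and 0 counts at 24 h and 386, 911 and 1016 at 72 h. For Cemip, which takes part in hyaluronan breakdown (chr7:83932857-84086502), the counts were 0, 3 and 2 and then 404, 428 and 422. The mitotic gene Depdc1a went from 0, 5 and 0 to 165, 221 and 195 counts. These 4 genes were near the limit of detection at 24 h, so only their levels at 72 h are well measured. The other 4 had more counts at 24 h, except that Cd5l had 11, 1 and 10. The heparin-binding growth factor Ptn (chr6:36714929-36810220) stood at 1.12, 2.41 and 0.464 CPM at 24 h and 92.4, 106 and 240.2 at 72 h (log2 change 6.69 ± 0.45, edgeR adjusted p = 3.15e-08), with replicate 3 at 72 h above the other two. Cthrc1, a secreted protein of activated fibroblasts (chr15:39076932-39087121), stood at 1.04, 1.98 and 2.78 CPM at 24 h and 116, 135 and 127 at 72 h (log2 change 6.04 ± 0.23, edgeR adjusted p = 6.57e-12). Gpnmb, a membrane glycoprotein of lipid-laden macrophages (chr6:49036546-49070929), stood at 4.88, 8.21 and 5.31 CPM at 24 h and 322, 329.7 and 413 at 72 h (log2 change 5.84 ± 0.2, edgeR adjusted p = 2.21e-12). Cd5l, a secreted macrophage protein (chr3:87357881-87371073), stood at 0.475, 0.0354 and 0.516 CPM at 24 h and 18.3, 15.9 and 18.6 at 72 h (log2 change 5.76 ± 0.61, edgeR adjusted p = 1.21e-06). The rule that named these 8 genes asked for groups that do not overlap.

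The 8 largest decreases were of another kind, mixing stretched muscle, leukocytes and the circadian clock. Ankrd2, a stretch-responsive muscle protein (chr19:42036000-42045110), measured 33, 58.9 and 46.2 CPM at 24 h and 1.42, 1.22 and 1.177 at 72 h (log2 change -5.17 ± 0.43, edgeR adjusted p = 1.95e-07), against 0.532 ± 0.268 CPM (SD, n = 3) in sham hearts. Timp4, an inhibitor of matrix metalloproteinases enriched in heart muscle (chr6:115241892-115252205), measured 73.6, 47.8 and 47.3 CPM at 24 h and 6.94, 4.17 and 5.44 at 72 h (log2 change -3.35 ± 0.32, edgeR adjusted p = 8.92e-07). Per2, a repressor in the circadian clock (chr1:91415982-91459324), measured 34.4, 32.3 and 23.7 CPM at 24 h and 2.37, 1.61 and 2.74 at 72 h (log2 change -3.75 ± 0.28, edgeR adjusted p = 3.18e-08). Tcf23, a helix-loop-helix factor, measured 8.85, 3.89 and 5.52 CPM at 24 h and 0.41, 0.853 and 0.35 at 72 h (log2 change -3.48 ± 0.42, edgeR adjusted p = 3.32e-06). In these 4 genes the 24 h libraries lay fairly close together. The other four spread widely at 24 h, with replicate 3 on top each time. Lcn2, which sequesters bacterial iron carriers and is abundant in neutrophil granules (chr2:32384633-32388252), measured 123, 64.9 and 239.9 CPM at 24 h and 7.13, 6.76 and 5.25 at 72 h (log2 change -4.48 ± 0.4, edgeR adjusted p = 6.51e-07). Rab44 measured 9.15, 1.8 and 55.4 CPM at 24 h and 0.852, 0.731 and 0.573 at 72 h (log2 change -4.92 ± 1.12, edgeR adjusted p = 0.00239). Asprv1 and Tnfrsf9, a protease and a costimulatory receptor, had log2 fold changes of -3.58 ± 0.84 and -3.47 ± 0.62. Without replicate 3 at 24 h the log2 fold changes were smaller, at -2.91 for Rab44, -2.08 for Asprv1 and -2.27 for Tnfrsf9, and all 3 were still called.

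Neutrophil genes were lower at 72 h in most of the list, but much of the size of that fall came from 1 mouse. Of 19 neutrophil genes tested, 12 were lower and 1 was higher, beside 26.1% and 24.4% of all genes, with a median log2 fold change of -2.33. Their summed level was 414, 185 and 1339 CPM at 24 h and 151, 167 and 168 CPM at 72 h. The 72 h libraries were close together, whereas at 24 h replicate 3 held several times the level of the others and replicate 2 came near the 72 h level. S100a9, a subunit of the calcium-binding alarmin calprotectin, stood at 59.5, 10.1 and 255 CPM at 24 h and 10.8, 12.1 and 12 at 72 h (log2 change -3.21 ± 0.98, edgeR adjusted p = 0.0155). Its partner S100a8 was at 48.9, 9.69 and 208 CPM at 24 h and 8.52, 11.2 and 10.3 at 72 h (log2 change -3.15 ± 0.95, edgeR adjusted p = 0.0142). In both, replicate 2 at 24 h lay within or below the range at 72 h. Csf3r, the receptor for the growth factor that drives neutrophil production, stood at 26.6, 11.7 and 100.3 CPM at 24 h and 22.8, 22.5 and 29.2 at 72 h (log2 change -0.89 ± 0.63, edgeR adjusted p = 0.26) and was not called. Without replicate 3 at 24 h, 3 neutrophil genes were lower and 2 higher, with a median of -0.49. Lower were Lcn2 (-3.89), Retnlg (-3.59), a secreted peptide of neutrophils, and G0s2 (-1.3), an inhibitor of fat breakdown. Higher were Padi4 (1.9), which converts arginine to citrulline in histones, and Clec4d (1.79), a lectin shared with macrophages. S100a8 and S100a9 then had log2 fold changes of -1.55 and -1.58 and lost their calls, as they did without replicate 1 at 72 h (-3.04 and -3.16). With all libraries Padi4 already stood at 1.73, 1.49 and 4.43 CPM at 24 h and 6.66, 6.36 and 5.09 at 72 h (log2 change 1.27 ± 0.33, edgeR adjusted p = 0.00368), the 1 gene of the list that rose. With only the 6 libraries in the fit, 5 genes of the list were lower, and leaving out a 72 h replicate gave 4 to 7. Fewer cells of a type and less RNA per cell cannot be told apart in whole tissue, here and in every group below. The tested red blood cell markers also fell, 5 of 5, from a summed 414 to 846 CPM at 24 h and 228 to 346 CPM at 72 h; the part of blood left in the tissue was not tested.

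Acute cytokines split by library in the same way. Of 23 cytokines, chemokines and feedback genes, 7 were lower, 0 higher and 16 not called, with a median of -1.31; a share of 7 in 23 is near the 26.1% of all genes called lower. Cxcl2, a chemokine that attracts neutrophils, stood at 12, 2.02 and 140.3 CPM at 24 h and 2.05, 2.31 and 1.5 at 72 h (log2 change -4.7 ± 1.19, edgeR adjusted p = 0.00528). Its call was lost without replicate 3 at 24 h (-1.82). Il1b, the inflammasome-processed interleukin, stood at 8.85, 4.63 and 109 CPM at 24 h and 6.94, 11.7 and 9.01 at 72 h (log2 change -2.13 ± 0.92, edgeR adjusted p = 0.0704) and was not called. Il6 stood at 2.11, 0.778 and 13.1 CPM at 24 h and 2.52, 4.35 and 3.75 at 72 h (log2 change -0.55 ± 0.81, edgeR adjusted p = 0.612) and was likewise not called. In all 3 genes replicate 3 at 24 h was the highest of the 6 libraries by far, and replicate 2 at 24 h was at or below the 72 h level. Without replicate 3 at 24 h, 0 of the 23 were lower and 4 were higher, with a median of 0.54. The higher ones were the chemokines Ccl3 (1.41) and Ccl7 (0.76), the cytokine Lif (1.36) and the nuclear regulator Nfkbiz (0.75). The direction for the list therefore depended on that mouse. Relative to sham, cytokines remained high at 72 h whichever way they moved: 15 of 23 were called higher than sham, beside 34.2% of all genes, and the log2 fold change of Il6 over sham was 7.08 at 24 h and 6.54 at 72 h.

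**Figure D1:**
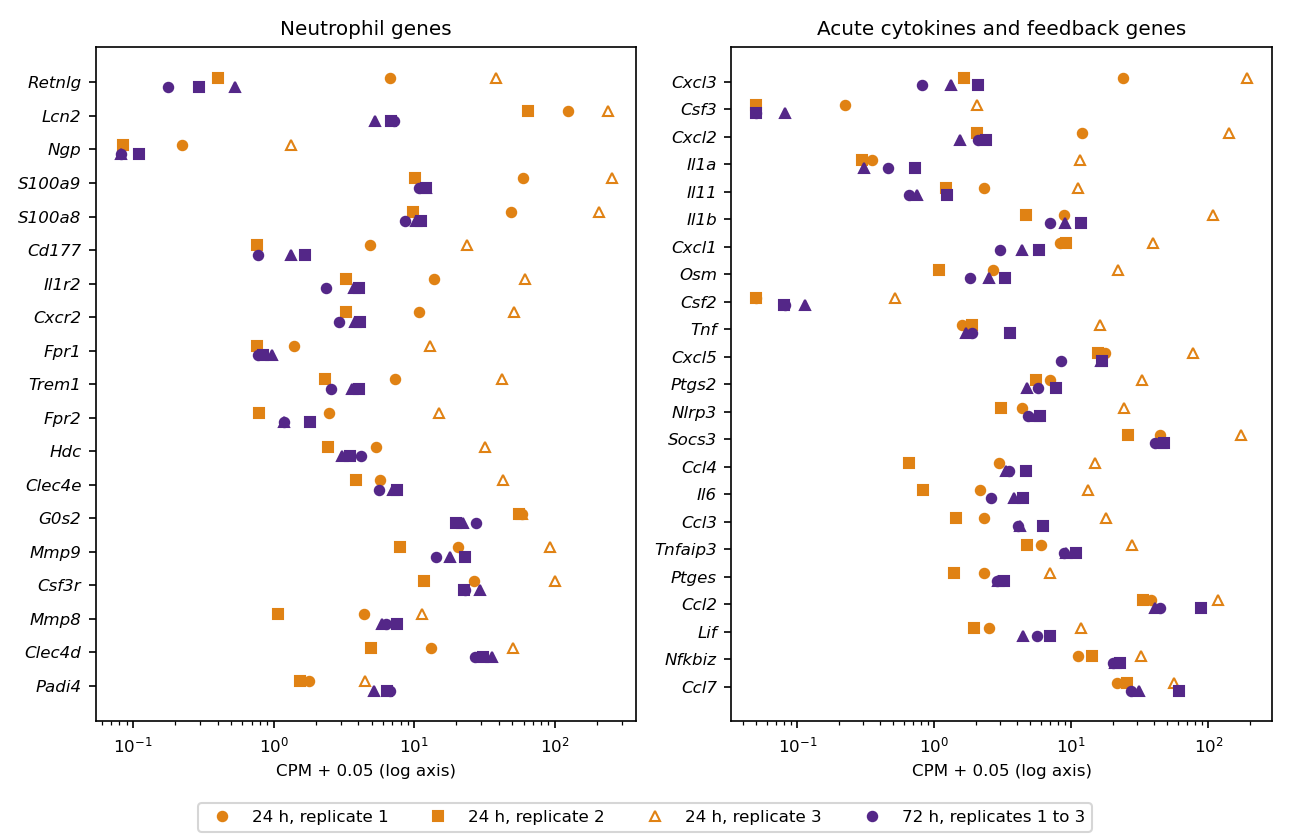
TMM-scaled CPM plus 0.05 on a log axis for each tested neutrophil gene (left) and acute cytokine or feedback gene (right), with 24 h libraries in orange and 72 h libraries in purple. Genes are ordered by log2 fold change, and marker shape gives the replicate. The open triangle, replicate 3 at 24 h, lies to the right of the other libraries in most genes, while the 72 h libraries lie close together.

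Few recruited monocyte genes were called. Of 14 tested, 4 were higher and 1 was lower, with a median of -0.08; a share of 4 in 14 is near the 24.4% of all genes. Their summed level was 438, 243 and 1433 CPM at 24 h and 555, 617 and 567 CPM at 72 h, again highest in replicate 3 and lowest in replicate 2 at 24 h. Ccr2, the chemokine receptor that brings monocytes out of the bone marrow, stood at 38.8, 44.9 and 79.9 CPM at 24 h and 92.3, 118 and 90.7 at 72 h (log2 change 0.88 ± 0.27, edgeR adjusted p = 0.0143). Each 72 h library was above each 24 h library, though the call was lost without replicate 1 or 2 at 24 h or replicate 2 at 72 h, where the log2 fold change was 0.69, 0.75 and 0.75. Plac8, a monocyte gene, stood at 7.29, 3.36 and 10.2 CPM at 24 h and 19.5, 18.1 and 19.4 at 72 h (log2 change 1.46 ± 0.33, edgeR adjusted p = 0.00126). Ly6c2, the surface protein of inflammatory monocytes, stood at 2.72, 1.1 and 5.05 CPM at 24 h and 6.56, 7.4 and 6.11 at 72 h (log2 change 1.2 ± 0.5, edgeR adjusted p = 0.0565), with no overlap but also no call. The strongest rise was in Ms4a6c, a membrane protein of the CD20-like family, at 9.02, 6.15 and 11.4 CPM at 24 h and 32.9, 32.1 and 33 at 72 h (log2 change 1.89 ± 0.26, edgeR adjusted p = 1.49e-05). F10, which encodes coagulation factor X, was the 1 that fell, with a log2 fold change of -1.9 ± 0.63. Without replicate 3 at 24 h, 6 were higher, 0 lower and the median was 0.97; F10 was then -0.45 and Ly6c2 1.82 (called). The median of the list also turned positive, to 0.33, when libraries were scaled to their totals.

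Genes of lipid-handling macrophages rose strongly. Of 19 tested, 14 were higher and 2 lower, with a median of 2.02. Besides Gpnmb, Trem2, a receptor for lipids and cell debris, stood at 10.6, 15.4 and 12.7 CPM at 24 h and 157, 138 and 180.3 at 72 h (log2 change 3.62 ± 0.19, edgeR adjusted p = 2.1e-10), and the 3 libraries at 72 h were alike. Spp1, which encodes the secreted adhesion protein osteopontin, stood at 154, 158 and 363 CPM at 24 h and 958, 1198 and 1201 at 72 h (log2 change 2.32 ± 0.52, edgeR adjusted p = 0.00221) and at 0.157 ± 0.0948 CPM in sham hearts. Apoe, the main apolipoprotein that macrophages secrete, stood at 404, 363 and 366 CPM at 24 h and 4674, 3512 and 5885 at 72 h (log2 change 3.64 ± 0.16, edgeR adjusted p = 2.5e-11). Per length of transcript, Apoe reached 2964, 2276 and 3943 FPKM at 72 h, above Myh6, the main adult myosin heavy chain of mouse heart muscle, at 1374, 1025 and 1151 FPKM. At 24 h the order was the reverse, with Apoe at 188, 191 and 181 FPKM and Myh6 at 1907, 2010 and 1084 FPKM. Lpl, lipoprotein lipase, fell, at 4980.4, 3408 and 2962 CPM at 24 h and 1517, 1295 and 1323 at 72 h (log2 change -1.46 ± 0.17, edgeR adjusted p = 1.02e-06), and so did Nr1h3, the oxysterol receptor LXR alpha (-0.31 ± 0.11). Lpl is abundant in heart muscle too, where its sham level was 5152 ± 283 CPM.

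Resident macrophage genes moved apart from one another. Of 12 tested, 7 were higher and 1 lower, with a median of 0.98. Folr2, a folate receptor of tissue macrophages, stood at 3.37, 2.83 and 2.48 CPM at 24 h and 17, 12.6 and 10.1 at 72 h (log2 change 2.19 ± 0.22, edgeR adjusted p = 2.51e-07). Cx3cr1, the fractalkine receptor, stood at 5.91, 11.5 and 4.23 CPM at 24 h and 47.1, 55.6 and 54.8 at 72 h (log2 change 2.84 ± 0.26, edgeR adjusted p = 2.07e-07). Lyve1, a hyaluronan receptor of resident macrophages and lymphatic vessels, was the 1 that fell, at 37.6, 25.6 and 18.7 CPM at 24 h and 18.7, 9.38 and 11.4 at 72 h (log2 change -1.05 ± 0.29, edgeR adjusted p = 0.00726); its groups touched, and the call was lost under library totals and without replicate 1 at 24 h (-0.75). Timd4, the phosphatidylserine receptor that marks long-lived cardiac macrophages, stood at 0.95, 0.92 and 0.567 CPM at 24 h and 1.14, 0.518 and 0.605 at 72 h (log2 change -0.13 ± 0.4, edgeR adjusted p = 0.817), near the detection limit in every library. Of these 3 markers of long-lived cardiac macrophages, Folr2 rose, Lyve1 fell and Timd4 was not called. The ratio of Cx3cr1 to Ccr2 in FPKM was 0.229, 0.386 and 0.0794 at 24 h and 0.765, 0.71 and 0.907 at 72 h, with no overlap (exact two-sided permutation p = 0.1, the smallest possible). The permutation p stayed at 0.1 after adjustment over the 5 ratios computed, all chosen after values were seen. In sham hearts the ratio was 3.94, 3.68 and 7.55, above both times. The ratio of C1qa to Ccr2 was 15.2, 15.5 and 5.77 at 24 h and 40.5, 24.85 and 42.4 at 72 h, with 218, 176 and 340 in sham.

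The machinery for taking up and digesting dead cells rose with them. Of 18 receptors and bridging proteins tested, 12 were higher and 1 lower, with a median of 1.03. C1qa, a chain of the complement protein that coats dying cells, stood at 90.6, 107 and 70.9 CPM at 24 h and 576, 449.7 and 592 at 72 h (log2 change 2.59 ± 0.14, edgeR adjusted p = 1.61e-10). The receptor tyrosine kinases Mertk and Axl, which bind bridging proteins on dead cells, rose less: Mertk stood at 15.9, 12.4 and 20.2 CPM at 24 h and 28, 27 and 32.4 at 72 h (log2 change 0.85 ± 0.18, edgeR adjusted p = 0.000629). Axl was at 110.3, 128 and 118 CPM at 24 h and 172, 181 and 165 at 72 h (log2 change 0.54 ± 0.09, edgeR adjusted p = 9.44e-05). Cd36, a fatty acid and scavenger receptor, fell, at 1482, 818 and 1254 CPM at 24 h and 585, 593 and 504 at 72 h (log2 change -1.08 ± 0.15, edgeR adjusted p = 1.35e-05), and like Lpl was abundant in sham hearts (1316 ± 65.3 CPM). Of 26 lysosome genes, 24 were higher and 0 lower, with a median of 1.61. The cysteine protease cathepsin B, Ctsb, stood at 616, 606 and 615 CPM at 24 h and 2788, 2842 and 3237 at 72 h (log2 change 2.27 ± 0.09, edgeR adjusted p = 9.02e-12), with libraries of each time almost level. Cathepsin D, Ctsd, an aspartic protease, stood at 472, 388 and 436 CPM at 24 h and 1093, 1043 and 1347 at 72 h (log2 change 1.43 ± 0.11, edgeR adjusted p = 1.68e-08). Cathepsin K, Ctsk, which cleaves collagen, stood at 6.17, 6.4 and 6.55 CPM at 24 h and 44.4, 51.6 and 51.4 at 72 h (log2 change 2.95 ± 0.13, edgeR adjusted p = 1.73e-11). The 2 lysosome genes without a call encode proton pump parts, Atp6v1b2 (0.0044 ± 0.11) and Atp6ap1 (0.09 ± 0.08). Under library totals all 26 were called higher. Atp6v0d2, a pump subunit found in macrophages and osteoclasts, had the largest rise of the list, 3.44 ± 0.39.

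Many lysosome genes are switched on by the factors TFEB and TFE3 through an E-box in the promoter, TCACGTGA. RefSeq promoters (GRCm38.p6, 250 bases before to 50 after the start, searched on both strands) were found for 19 of the 26 lysosome genes, and 5 held this motif, against 0.974% of all 32851 promoters. The shorter CACGTG, which lies inside it, was in 9 of 19 and in 7.15% of all promoters. A gene with more than 1 promoter counts if any of them matched, whereas the share of all promoters is per promoter. A match describes the letters and does not show binding. The promoters of the first 2 listed genes with a match are printed 5′ to 3′ with the E-box in capitals, since these genes rose together; they lie at chr7:142387778-142388077, minus strand, for Ctsd and at chr2:164833523-164833822, plus strand, for the carboxypeptidase Ctsa, which rose by 1.26 ± 0.1.
Ctsd: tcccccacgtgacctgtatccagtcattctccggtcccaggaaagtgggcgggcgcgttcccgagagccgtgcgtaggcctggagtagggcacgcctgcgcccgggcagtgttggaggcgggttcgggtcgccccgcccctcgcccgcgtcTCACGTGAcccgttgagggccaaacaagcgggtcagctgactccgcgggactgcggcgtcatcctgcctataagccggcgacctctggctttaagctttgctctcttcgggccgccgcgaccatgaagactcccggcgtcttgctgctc
Ctsa: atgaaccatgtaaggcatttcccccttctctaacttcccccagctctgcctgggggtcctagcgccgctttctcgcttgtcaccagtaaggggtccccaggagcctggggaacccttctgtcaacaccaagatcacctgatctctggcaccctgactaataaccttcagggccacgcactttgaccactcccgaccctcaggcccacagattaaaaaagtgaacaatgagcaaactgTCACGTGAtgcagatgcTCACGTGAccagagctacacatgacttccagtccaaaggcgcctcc

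Antigen presentation and interferon genes rose by a similar size. Of 14 MHC class II and dendritic cell genes, 11 were higher and 0 lower, with a median of 1.21. The class II alpha chain H2-Aa stood at 34.9, 45.6 and 33.7 CPM at 24 h and 122, 105 and 127 at 72 h (log2 change 1.63 ± 0.15, edgeR adjusted p = 5.6e-08). The beta chain H2-Ab1 was at 72.4, 96.1 and 84.3 CPM at 24 h and 234, 191 and 222 at 72 h (log2 change 1.36 ± 0.16, edgeR adjusted p = 1.93e-06). Cd74, the invariant chain that fills the class II groove, stood at 86, 113 and 95.1 CPM at 24 h and 255, 214 and 244 at 72 h (log2 change 1.28 ± 0.13, edgeR adjusted p = 2.24e-07). The markers of cross-presenting dendritic cells, Xcr1 (-0.03 ± 0.45) and Clec9a (-0.02 ± 0.21), were not called. Of 21 interferon-stimulated genes, 19 were higher and 0 lower, with a median of 1.32. Irf7, a transcription factor that amplifies the interferon response, stood at 20.6, 16.1 and 30.9 CPM at 24 h and 78.1, 51.6 and 55 at 72 h (log2 change 1.46 ± 0.26, edgeR adjusted p = 0.000211). The antiviral protein Ifit3 stood at 11.9, 8.31 and 19.4 CPM at 24 h and 42.3, 39.2 and 33.5 at 72 h (log2 change 1.55 ± 0.26, edgeR adjusted p = 0.000109). The ubiquitin-like Isg15 was at 9.49, 7.11 and 21.2 CPM at 24 h and 31.3, 25.7 and 27 at 72 h (log2 change 1.16 ± 0.31, edgeR adjusted p = 0.00529). In all 3 genes replicate 3 was the highest of the 24 h libraries, and without it Isg15 rose by 1.75. Lymphocyte markers stayed scarce: the 12 summed to 3.5 to 7.53 CPM at 24 h and 9.29 to 11.7 CPM at 72 h, and 3 of the 7 tested (Nkg7, Cd79b and Gzma) rose.

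The cell cycle genes rose as complete sets, and mitosis genes by far more than DNA replication genes. All 33 replication genes were higher, with a median of 1.4 and a range from 0.41 (Pold1) to 2.78 (Rrm2). All 32 mitosis genes were higher, with a median of 4.3 and a range from 2.67 (Cenpf) to 5.65 (Hmmr). Mcm2, a subunit of the replicative helicase, stood at 13.2, 20.4 and 15.4 CPM at 24 h and 30.8, 42.4 and 33 at 72 h (log2 change 1.11 ± 0.14, edgeR adjusted p = 4.2e-06). Pcna, the sliding clamp, stood at 56.5, 68.6 and 69.2 CPM at 24 h and 104, 128 and 107 at 72 h (log2 change 0.8 ± 0.1, edgeR adjusted p = 2.09e-06). Rrm2, a subunit of the enzyme that makes deoxynucleotides, stood at 1.81, 5.02 and 1.65 CPM at 24 h and 17.8, 25.3 and 16.6 at 72 h (log2 change 2.78 ± 0.35, edgeR adjusted p = 4.84e-06). Mki67, which coats mitotic chromosomes, stood at 2.2, 6.12 and 2.17 CPM at 24 h and 69.7, 101 and 87.7 at 72 h (log2 change 4.58 ± 0.38, edgeR adjusted p = 1.52e-07). Cdk1, the kinase that drives entry into mitosis, stood at 0.82, 2.41 and 0.464 CPM at 24 h and 25.6, 31.1 and 28.2 at 72 h (log2 change 4.45 ± 0.39, edgeR adjusted p = 1.27e-07). Its partner cyclin B1, Ccnb1, was at 0.216, 1.06 and 0 CPM at 24 h and 18.5, 26.3 and 20.8 at 72 h (log2 change 5.52 ± 0.51, edgeR adjusted p = 2.64e-07). No 24 h library reached any 72 h library in these 6 genes, and replicate 2 was the highest of the 24 h libraries in all but Pcna. The FPKM ratio of Ccnb1 to Mcm2 was 0.027, 0.0858 and 0 at 24 h and 0.991, 1.02 and 1.04 at 72 h (exact two-sided permutation p = 0.1, the smallest possible). Over sham, the median log2 fold change of the replication genes was 0.81 at 24 h and 2.14 at 72 h, and that of the mitosis genes 1.36 and 5.66. Mitosis genes were scarce at 24 h: with at least 10 counts asked of each of the 6 libraries, 15 of 32 were tested, and 15 of those were higher with a median of 4.28.

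Replication and mitosis genes are known to be controlled through different promoter elements: E2F sites for the first and, for the second, a CHR element, TTTGAA, often with a CCAAT box upstream of it. Promoters were found for 27 of the 32 mitosis genes and 27 of the 33 replication genes. TTTGAA was in 20 of the 27 mitosis genes, 4 of the 27 replication genes and 17.9% of all promoters. CCAAT was in 20 and 16 of them and in 37.4% of all promoters. It was also in 11 of 21 sarcomere genes, a list that fell, in 9 of 22 collagen genes and in 7 of 19 lysosome genes. As above, list counts are per gene and the shares of all promoters are per promoter. The E2F sites TTTCCCGC, TTTGGCGC, TTTCGCGC and TTTGCCGC, counted as one, were in 1 mitosis gene, 12 replication genes and 2.26% of all promoters. The overlapping form TTCCCGCC was in 0 and 7, the CHR variant TTTAAA in 8 and 4, and TATAAA in 1 and 2, with 2.19%, 13.2% and 13.6% of all promoters. These counts describe sequence and not binding. The promoters of Mki67 (chr7:135716330-135716629, minus strand) and Cdk1 (chr10:69352863-69353162, minus strand) are shown with TTTGAA and CCAAT in capitals on either strand. Those of the helicase genes Mcm3 (chr1:20820263-20820562, minus strand) and Mcm5 (chr8:75109259-75109558, plus strand), which rose by 1.27 ± 0.17 and 1.61 ± 0.21, are shown with E2F sites in capitals, of which the pair in Mcm5 overlap.
Mki67: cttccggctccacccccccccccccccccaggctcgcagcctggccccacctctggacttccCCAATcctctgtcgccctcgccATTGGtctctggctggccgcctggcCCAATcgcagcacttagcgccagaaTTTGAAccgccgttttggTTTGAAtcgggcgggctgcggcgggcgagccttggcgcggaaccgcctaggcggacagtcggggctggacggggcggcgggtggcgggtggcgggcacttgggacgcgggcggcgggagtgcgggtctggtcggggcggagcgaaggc
Cdk1: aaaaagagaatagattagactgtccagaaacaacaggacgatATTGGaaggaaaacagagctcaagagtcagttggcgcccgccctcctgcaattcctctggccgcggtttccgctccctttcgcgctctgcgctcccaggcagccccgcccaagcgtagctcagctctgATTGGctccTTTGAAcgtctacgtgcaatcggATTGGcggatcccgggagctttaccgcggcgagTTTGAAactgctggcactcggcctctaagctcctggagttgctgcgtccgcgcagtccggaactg
Mcm3: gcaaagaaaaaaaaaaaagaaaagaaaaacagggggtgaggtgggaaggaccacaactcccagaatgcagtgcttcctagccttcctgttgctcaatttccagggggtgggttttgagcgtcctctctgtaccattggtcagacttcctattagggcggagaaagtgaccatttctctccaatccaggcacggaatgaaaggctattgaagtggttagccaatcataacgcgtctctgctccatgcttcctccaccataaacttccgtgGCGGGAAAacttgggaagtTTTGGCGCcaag
Mcm5: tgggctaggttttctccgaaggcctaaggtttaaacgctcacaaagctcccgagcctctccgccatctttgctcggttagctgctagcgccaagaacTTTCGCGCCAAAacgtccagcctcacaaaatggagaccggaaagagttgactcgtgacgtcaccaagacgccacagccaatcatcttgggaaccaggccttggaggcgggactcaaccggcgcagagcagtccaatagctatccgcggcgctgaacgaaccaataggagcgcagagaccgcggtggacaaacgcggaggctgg

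Regulators of the start of the cell cycle were less uniform. Of 15 G1 cyclins, kinases and inhibitors tested, 7 were higher and 2 lower, beside 24.4% and 26.1% of all genes, with a median of 0.19. Ccnd1, cyclin D1, stood at 47.2, 60.7 and 57.4 CPM at 24 h and 56.6, 64.8 and 49.4 at 72 h (log2 change 0.05 ± 0.16, edgeR adjusted p = 0.832), and its groups overlapped. Cdkn1a, the inhibitor p21, stood at 105, 70.5 and 226 CPM at 24 h and 78.7, 84.8 and 72.5 at 72 h (log2 change -0.76 ± 0.5, edgeR adjusted p = 0.223), well above its sham level of 17.6 ± 2.08 CPM at both times. Cdkn2a, which encodes the inhibitors p16 and p19ARF, rose from a very low level, at 0.216, 0.0707 and 0.516 CPM at 24 h and 0.883, 1.4 and 1.24 at 72 h (log2 change 2.21 ± 0.49, edgeR adjusted p = 0.00104). Cdkn1c, the inhibitor p57, fell, at 15.5, 18.2 and 6.5 CPM at 24 h and 7.98, 5.3 and 8.85 at 72 h (log2 change -0.87 ± 0.27, edgeR adjusted p = 0.0131), but its groups overlapped and the call was lost with only the 6 libraries in the fit, under library totals, on FPKM values, and without replicate 1 or 2 at 24 h or replicate 2 at 72 h (-0.76, -0.59 and -0.69). The E-type cyclins Ccne1 (1.57 ± 0.36) and Ccne2 (1.6 ± 0.26) both rose. Under library totals 11 of the 15 were higher.

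Collagen genes rose broadly. Of 27 chains tested, 24 were higher and 0 lower, with a median of 2.1, which was the same with Col24a1 set at its bound. Col1a1, the main chain of type I collagen, stood at 128, 239.7 and 139 CPM at 24 h and 3066, 4349 and 3233 at 72 h (log2 change 4.39 ± 0.25, edgeR adjusted p = 4.64e-10). Col3a1, the chain of type III collagen, stood at 252, 429 and 286 CPM at 24 h and 4451, 5803 and 4945 at 72 h (log2 change 3.98 ± 0.24, edgeR adjusted p = 8.52e-10). The 3 chains without a call were all of basement membrane type IV: Col4a1 (0.44 ± 0.2), Col4a2 (0.13 ± 0.19) and Col4a5 (-0.04 ± 0.12). The other type IV chains, Col4a3 (1.07), Col4a4 (0.88) and Col4a6 (2.04), were called higher. Their mean levels at 72 h were low, at 0.24, 0.67 and 0.43 FPKM. The lack of a call for Col4a1, Col4a2 and Col4a5 depended on the scaling, since under library totals all 27 chains were called higher. Per length, the order of the chains changed. At 24 h Col4a1 stood at 81.1, 105 and 131 FPKM, above Col1a1 at 19.4, 41.2 and 22.5 and Col3a1 at 25.5, 49.3 and 30.8 FPKM in each library. At 72 h Col1a1 stood at 633, 918 and 706 FPKM and Col3a1 at 615, 819 and 722, both above Col4a1 at 162, 242 and 159 FPKM. The FPKM ratio of Col3a1 to Col1a1 was 1.32, 1.2 and 1.37 at 24 h and 0.971, 0.892 and 1.02 at 72 h, with no overlap (exact two-sided permutation p = 0.1, the smallest possible).

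Enzymes that fold, trim and cross-link collagen rose with the chains: of 25 tested, 20 were higher and 0 lower, with a median of 1.17. Lox, lysyl oxidase, which cross-links collagen, stood at 24.1, 29.9 and 53.2 CPM at 24 h and 270.0, 351 and 273 at 72 h (log2 change 3.07 ± 0.24, edgeR adjusted p = 6.03e-08). P4ha3, a prolyl hydroxylase subunit, had the largest rise of the list, at 0.993, 0.637 and 0.722 CPM at 24 h and 26.9, 32.7 and 31.3 at 72 h (log2 change 5.27 ± 0.31, edgeR adjusted p = 4.36e-10), while its relatives P4ha1 (0.26 ± 0.2) and P4ha2 (-0.07 ± 0.12) were not called. Serpinh1, the collagen chaperone HSP47, stood at 391, 543 and 418 CPM at 24 h and 963, 1178 and 1005 at 72 h (log2 change 1.22 ± 0.17, edgeR adjusted p = 1.16e-05). In each of these 3 called genes the 24 h level was already above that of sham hearts, at 5.14 ± 1.25, 0.0831 ± 0.0335 and 238 ± 39.8 CPM.

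Of 24 matricellular and adhesive glycoprotein genes, 17 were higher and 1 lower, with a median of 1.73. Postn, periostin, which marks activated cardiac fibroblasts, stood at 63.7, 113 and 65.5 CPM at 24 h and 1577, 1603 and 1516 at 72 h (log2 change 4.28 ± 0.25, edgeR adjusted p = 9.89e-10). Fn1, fibronectin, stood at 299.7, 248 and 749 CPM at 24 h and 1279.7, 1896 and 1283 at 72 h (log2 change 1.78 ± 0.34, edgeR adjusted p = 0.00052). Tnc, tenascin C, was at 85.6, 101 and 112 CPM at 24 h and 272, 414 and 211 at 72 h (log2 change 1.59 ± 0.45, edgeR adjusted p = 0.00977). The last 2 differed from Postn in when they rose: over sham, the log2 fold change of Tnc was 7.21 at 24 h and 8.8 at 72 h, that of Fn1 3.08 at 24 h and 4.86 at 72 h and that of Postn 1.94 at 24 h and 6.21 at 72 h. Fstl3, a secreted inhibitor of activins, was the 1 that fell, at 24.2, 26.5 and 30.1 CPM at 24 h and 11.3, 13.2 and 8.24 at 72 h (log2 change -1.3 ± 0.21, edgeR adjusted p = 5.28e-05). The immediate targets of mechanical and YAP signalling, Ccn1 (-0.56 ± 0.38) and Ccn2 (-0.34 ± 0.3), were not called.

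Matrix proteases and their inhibitors moved in both directions. Of 22 tested, 10 were higher and 4 lower, beside 24.4% and 26.1% of all genes, with a median of 0.31. The share of 4 in 22 is below that of all genes called lower. Mmp14, a membrane-bound collagenase, stood at 61.1, 69 and 133 CPM at 24 h and 345, 453 and 425 at 72 h (log2 change 2.22 ± 0.25, edgeR adjusted p = 3.37e-06). Mmp3, stromelysin 1, stood at 14.6, 12.4 and 17.2 CPM at 24 h and 14.4, 21.7 and 10.8 at 72 h (log2 change 0.09 ± 0.23, edgeR adjusted p = 0.782). Timp1, an inhibitor of these enzymes, was at 122, 138 and 262 CPM at 24 h and 175, 251 and 155 at 72 h (log2 change 0.16 ± 0.24, edgeR adjusted p = 0.629). Both overlapped between times and both were above sham (2.73 ± 0.646 and 1.69 ± 0.286 CPM). The 4 inhibitors of the family diverged: Timp2 rose by 2.1 ± 0.14, Timp1 was not called, and Timp3 (-1.36 ± 0.18) and Timp4 (-3.35 ± 0.32) fell. The other 2 that fell were the aggrecanases Adamts1 (-1.51 ± 0.28) and Adamts9 (-1.09 ± 0.36).

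Fibroblast genes rose in both states that were listed. Of 23 genes of activated fibroblasts and myofibroblasts, 18 were higher and 0 lower, with a median of 1.61. Acta2, smooth muscle actin, stood at 102, 124 and 112 CPM at 24 h and 270.5, 361 and 321 at 72 h (log2 change 1.5 ± 0.23, edgeR adjusted p = 5.55e-05). Fap, fibroblast activation protein, stood at 1.94, 3.25 and 1.91 CPM at 24 h and 14.6, 17.3 and 20.8 at 72 h (log2 change 2.87 ± 0.22, edgeR adjusted p = 1.08e-08). In sham it was at 4.81 ± 0.414 CPM, so that its 24 h level was below sham. Meox1, a homeobox factor of activated fibroblasts, stood at 22.5, 29.8 and 24.4 CPM at 24 h and 88.2, 87.9 and 73 at 72 h (log2 change 1.7 ± 0.2, edgeR adjusted p = 2.15e-06). The receptors Pdgfra (0.28 ± 0.13) and Pdgfrb (0.23 ± 0.11) were not called. Of 18 genes typical of fibroblasts in the uninjured heart, 13 were higher and 2 lower, with a median of 0.78. Dcn, the proteoglycan decorin, stood at 283, 231 and 198 CPM at 24 h and 583, 450.4 and 507 at 72 h (log2 change 1.11 ± 0.13, edgeR adjusted p = 1.46e-06). Tcf21, a transcription factor of cardiac fibroblasts, was at 9.19, 8.95 and 9.59 CPM at 24 h and 28.5, 30.2 and 34 at 72 h (log2 change 1.74 ± 0.13, edgeR adjusted p = 5.41e-09). Gsn, the actin-severing gelsolin, stood at 812, 546 and 572 CPM at 24 h and 697, 370.2 and 446 at 72 h (log2 change -0.35 ± 0.19, edgeR adjusted p = 0.128) and was not called. The 2 that fell were Hsd11b1 (-1.05 ± 0.19), which activates glucocorticoid, and Ly6a (-0.41 ± 0.1). These resting genes had been low at 24 h: 12 of 18 were called below sham then, beside 20.2% of all genes, and 6 of 18 at 72 h, beside 32.2%.

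Among markers of neighbouring tissues, most epicardial and all tested cartilage markers rose, while atrial markers moved in both directions. Of 10 epicardial and mesothelial markers, 8 were higher, and the sum of the 10 was 60.9 to 88.5 CPM at 24 h and 82 to 139 CPM at 72 h. The highest sum was in replicate 1 at 72 h, and the largest part came from Aldh1a2, which was not called. Much of the size of the rise lay in that library for Upk3b (19.5, 3.71 and 5.35 CPM at 72 h), Msln (15.8, 5.36 and 6.08) and Muc16 (3.12, 0.335 and 0.573). Upk1b, Krt19 and Krt8 were also highest there. Krt18 (5.8, 5.57 and 4.07) and Tbx18 (9.085, 10.1 and 11.7) were more even. Of 6 cartilage and bone markers, the 4 tested (Sox9, Acan, Fmod and Comp) rose and the sum was 4.83 to 6.19 CPM at 24 h and 35.1 to 45.5 CPM at 72 h, while Ibsp was at 0 in all 6 libraries. The 6 atrial markers summed to 21.1 to 30.6 CPM at 24 h and 40.2 to 46.8 CPM at 72 h. Of the 4 tested, Dkk3 rose (3.99), Stard10 fell (-0.93) and Myl7 and Myl4 were not called, while Sln was at 0 in all 6 libraries. Dkk3 stood at 2.29, 2.16 and 0.928 CPM at 24 h and 29.5, 29.5 and 28.1 at 72 h, the largest part of the 72 h sum. Comp, among the cartilage markers, is also a member of the matricellular list. The part of these cell types in the matrix results was not tested.

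Folding and export genes of the endoplasmic reticulum moved in both directions. Of 25, 10 were higher and 4 lower, beside 24.4% and 26.1% of all genes, with a median of 0.23. Kdelr3, which returns escaped chaperones to the endoplasmic reticulum, rose, at 10.4, 13.1 and 14 CPM at 24 h and 41.2, 44.2 and 42.4 at 72 h (log2 change 1.77 ± 0.14, edgeR adjusted p = 1.71e-08). Creb3l1, a transcription factor for secretory and collagen genes, rose by 1.88 ± 0.25. The 4 that fell were Dnajb9, Ddit3, Atf4 and Hspa5, which belong to the unfolded protein response. Of its other genes, Xbp1 (-0.42), Manf (-0.29) and Creld2 (-0.45) were not called, and Pdia4 (0.45) and Pdia6 (0.63) rose. Dnajb9, a co-chaperone, was at 69.1, 52.2 and 76.1 CPM at 24 h and 28.6, 27.4 and 28.4 at 72 h (log2 change -1.22 ± 0.13, edgeR adjusted p = 4.68e-07). Ddit3, the stress factor CHOP, was at 29.95, 31.1 and 48.3 CPM at 24 h and 18.8, 17.1 and 18.1 at 72 h (log2 change -1.02 ± 0.16, edgeR adjusted p = 2.81e-05). Atf4 fell as well (-0.59 ± 0.16). Hspa5, the chaperone BiP, was at 853, 529.8 and 936 CPM at 24 h and 467, 593 and 539.9 at 72 h (log2 change -0.54 ± 0.16, edgeR adjusted p = 0.0108). Hspa5 overlapped between times, and its call was lost with only the 6 libraries in the fit, under library totals, and without replicate 1 or 3 at 24 h or replicate 1 at 72 h (-0.46, -0.38 and -0.45). Under library totals 18 were higher and 2 lower.

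Secreted growth factors moved in both directions. Of 24 tested, 6 were higher and 8 lower, near the 24.4% and 26.1% of all genes; the median of -0.3 turned to 0.1 under library totals and to 0.18 without replicate 3 at 24 h. Of those that rose, Igf1, insulin-like growth factor, stood at 12, 15.1 and 8.35 CPM at 24 h and 80.03, 71.5 and 87.4 at 72 h (log2 change 2.74 ± 0.17, edgeR adjusted p = 6.27e-10). Hgf, hepatocyte growth factor, stood at 0.604, 0.672 and 0.877 CPM at 24 h and 6.53, 8.8 and 7.57 at 72 h (log2 change 3.41 ± 0.29, edgeR adjusted p = 2.83e-08). The others were Il10 (2.84 ± 0.73), Nrg1 (2.36 ± 0.46), Tgfb3 (1.87 ± 0.18) and Pdgfc (1.62 ± 0.25). Among those that fell were the vessel growth factors Vegfa (-0.8 ± 0.17) and Vegfb (-1.1 ± 0.17), and Hbegf (-1.9 ± 0.25), a ligand of the epidermal growth factor receptor. Tgfb1, which drives matrix production, stood at 47.7, 50.7 and 84.9 CPM at 24 h and 81.4, 88.5 and 80.8 at 72 h (log2 change 0.45 ± 0.2, edgeR adjusted p = 0.0724). Inhba, a subunit of activin, was at 13.8, 12.8 and 48.8 CPM at 24 h and 15.5, 23.7 and 16.4 at 72 h (log2 change -0.43 ± 0.5, edgeR adjusted p = 0.5). Neither was called, and in both replicate 3 at 24 h was the highest of its group.

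**Figure D2:**
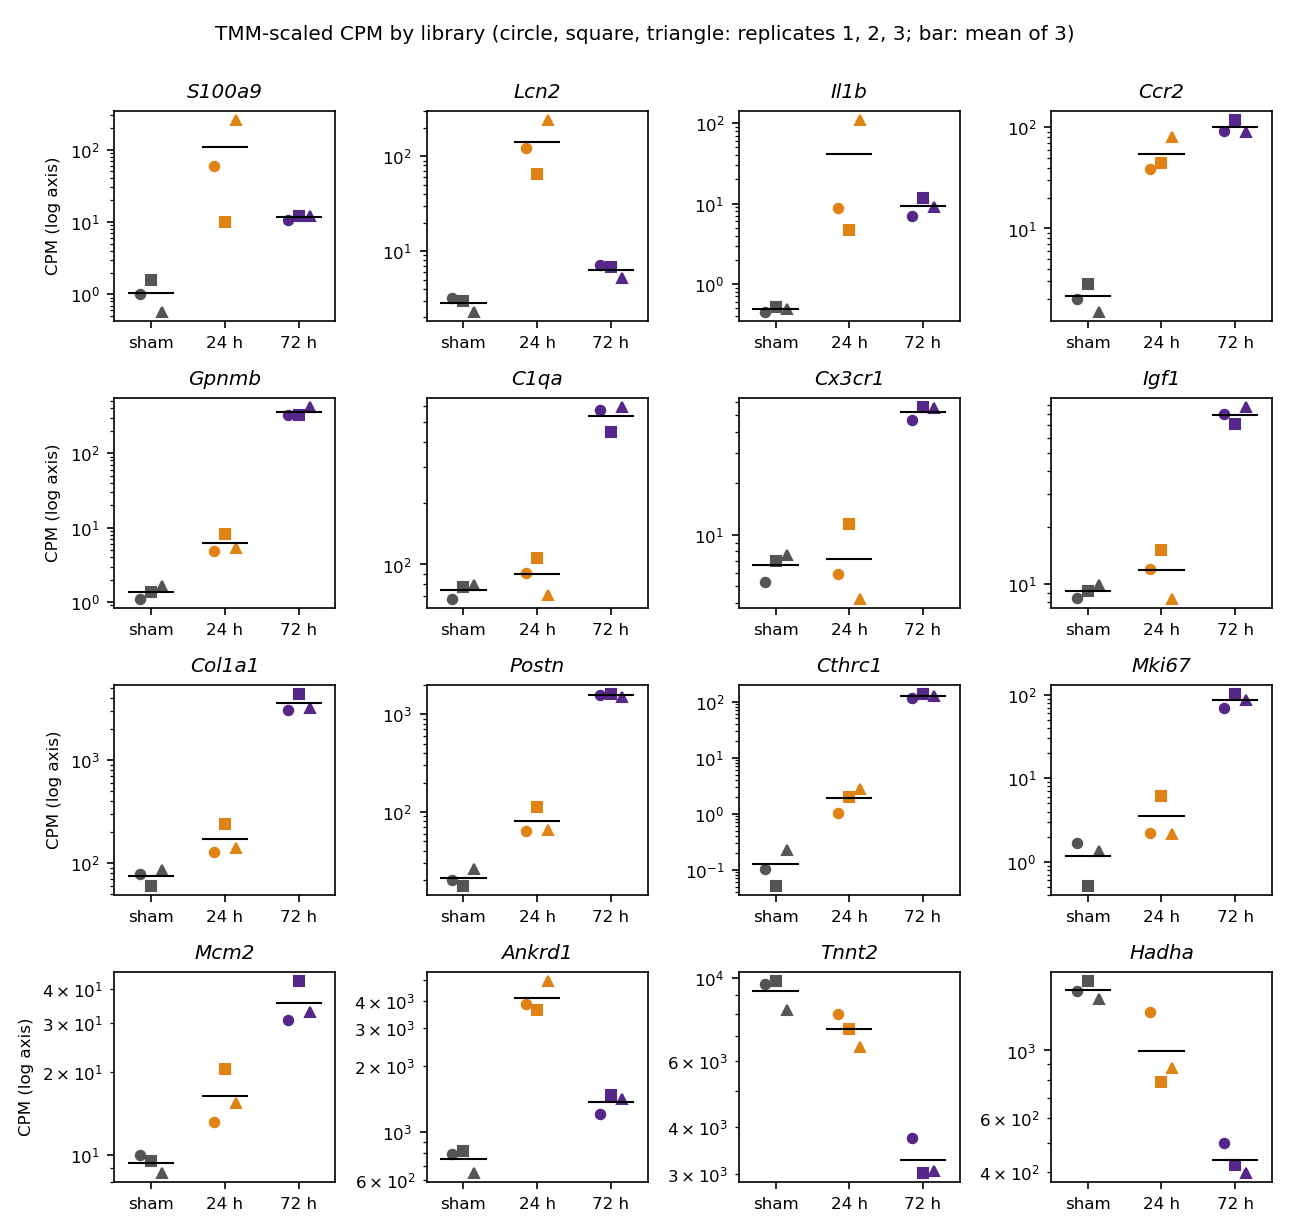
TMM-scaled CPM of 16 genes on log axes in sham, 24 h and 72 h libraries, with 1 point per mouse and a bar at the mean of 3. Gpnmb, C1qa, Col1a1, Postn, Cthrc1 and Mki67 show no overlap between 24 h and 72 h, whereas S100a9 and Il1b spread widely at 24 h.

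Sarcomere genes fell further from 24 h to 72 h. Of 24 tested, 23 were lower and 0 higher, with a median of -1.09. Myh6 stood at 12169, 11310 and 6488 CPM at 24 h and 6433, 4696 and 5099 at 72 h (log2 change -0.88 ± 0.19, edgeR adjusted p = 0.000689). Tnnt2, cardiac troponin T, stood at 8033, 7301 and 6555 CPM at 24 h and 3746, 3018 and 3054 at 72 h (log2 change -1.16 ± 0.15, edgeR adjusted p = 3.9e-06). Ttn, the giant spring protein titin, was at 1275, 1566 and 956 CPM at 24 h and 831, 621 and 759 at 72 h (log2 change -0.78 ± 0.18, edgeR adjusted p = 0.00132). None of the 3 overlapped between times, although replicate 3 at 24 h was close to replicate 1 at 72 h for Myh6. Myh7, the slow myosin that is re-expressed in stressed muscle, had a larger decrease than Myh6 (-2.03 ± 0.4). The FPKM ratio of Myh7 to Myh6 was 0.056, 0.0414 and 0.0449 at 24 h and 0.0155, 0.027 and 0.0246 at 72 h, with 0.00794, 0.00765 and 0.00701 in sham hearts, and the 24 h and 72 h values did not overlap (exact two-sided permutation p = 0.1, the smallest possible). Under library totals 19 of the 24 were lower with a median of -0.69, and the calls for Ttn and Ryr2 were lost.

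Of 21 calcium handling and ion channel genes, 19 were lower and 0 higher, with a median of -0.95. Atp2a2, the calcium pump of the sarcoplasmic reticulum, stood at 8058, 5660 and 4411 CPM at 24 h and 3174, 2628 and 2520.1 at 72 h (log2 change -1.12 ± 0.17, edgeR adjusted p = 2.79e-05). Ryr2, its release channel, stood at 895, 599.6 and 513 CPM at 24 h and 441, 403 and 359 at 72 h (log2 change -0.74 ± 0.17, edgeR adjusted p = 0.00132). Without replicate 1 at 24 h its log2 fold change was -0.47. Under library totals 12 of the 21 were lower.

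Cardiac stress genes had risen at 24 h and came down by 72 h. Of 22 tested, 20 were lower and 0 higher, with a median of -1.49. Ankrd1, a stretch-induced titin partner, stood at 3842, 3629.6 and 4899 CPM at 24 h and 1211, 1476 and 1414 at 72 h (log2 change -1.59 ± 0.23, edgeR adjusted p = 1.98e-05), and at 756 ± 92.9 CPM in sham. Of the natriuretic peptides, Nppb was called lower and Nppa was not called, and the difference between them was not tested. Nppb stood at 1182, 1313 and 1485 CPM at 24 h and 625, 730.3 and 664 at 72 h (log2 change -0.98 ± 0.33, edgeR adjusted p = 0.0214). Nppa was at 636, 808 and 560.0 CPM at 24 h and 569, 608 and 646 at 72 h (log2 change -0.14 ± 0.35, edgeR adjusted p = 0.775), with overlap. Both remained above sham, where Nppb was 229 ± 36.7 and Nppa 145 ± 58.4 CPM. Of the small heat shock proteins Hspb1 fell by 2.43 ± 0.25 and Cryab by 1.9 ± 0.14. The number of stress genes called above sham was 18 of 22 at 24 h, beside 23.7% of all genes, and 8 of 22 at 72 h, beside 34.2%. Called below sham were 1 of 22 at 24 h, beside 20.2% of all genes, and 7 of 22 at 72 h, beside 32.2%. The call for Nppb was lost under library totals, and without replicate 3 at 24 h or replicate 1 or 3 at 72 h (-0.9, -0.93 and -0.97).

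Genes for oxidative metabolism fell as complete sets. All 25 fatty acid genes were lower, with a median of -1.2. So were all 33 nuclear genes of the respiratory chain (-1.09) and all 13 protein genes of the mitochondrial genome (-1.67). Hadha, a subunit of the mitochondrial trifunctional enzyme of beta-oxidation, stood at 1336, 789 and 874 CPM at 24 h and 498, 423 and 398 at 72 h (log2 change -1.184 ± 0.15, edgeR adjusted p = 4.81e-06). Acadm, the medium-chain acyl-CoA dehydrogenase, stood at 946, 611 and 612 CPM at 24 h and 349, 272 and 267 at 72 h (log2 change -1.29 ± 0.15, edgeR adjusted p = 1.22e-06). Cpt1b, which admits long-chain fatty acids to the mitochondrion of muscle, stood at 6.56, 5.45 and 5.36 CPM at 24 h and 3.25, 1.43 and 2.99 at 72 h (log2 change -1.180 ± 0.26, edgeR adjusted p = 0.000892). Pdk4, which blocks glucose oxidation, had the largest fall of the fatty acid list, -2.42 ± 0.52. In the respiratory chain, Sdha, of complex II, stood at 1614, 1100.4 and 1063 CPM at 24 h and 641, 497 and 506 at 72 h (log2 change -1.2 ± 0.14, edgeR adjusted p = 1.81e-06). Ndufa4 was at 760.0, 636 and 516 CPM at 24 h and 381, 261 and 256 at 72 h (log2 change -1.09 ± 0.15, edgeR adjusted p = 1e-05). Atp5a1, of the ATP synthase, stood at 4159, 3129 and 2898 CPM at 24 h and 1854, 1431 and 1487 at 72 h (log2 change -1.09 ± 0.14, edgeR adjusted p = 2.7e-06). The nuclear genes fell within a narrow range, from -1.76 for the muscle form Cox7a1 to -0.64 for Sdhd. Of the mitochondrial genome, mt-Co1 stood at 96210, 61417 and 90604 CPM at 24 h and 32681, 31027 and 24751 at 72 h (log2 change -1.49 ± 0.19, edgeR adjusted p = 4.35e-06). Cytochrome b, mt-Cytb, was at 36357, 27802 and 38151 CPM at 24 h and 13017, 11827 and 9323 at 72 h (log2 change -1.58 ± 0.17, edgeR adjusted p = 4.34e-07). The complex I subunit mt-Nd1 was at 24370, 19083 and 24125 CPM at 24 h and 9602, 8668 and 7665 at 72 h (log2 change -1.38 ± 0.16, edgeR adjusted p = 1.17e-06). Reads of the mitochondrial genome can also match nuclear copies of it, so their division is uncertain. Relative to sham, the mitochondrial genes had a median of -0.42 at 24 h and -2.19 at 72 h, and the nuclear ones -0.58 and -1.68. The 6 ventricular markers fell as well, 6 of 6; the part of muscle loss in the metabolic genes was not tested.

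Of 29 glycolysis and hypoxia-response genes, 20 were lower and 3 higher, with a median of -0.78. Hk2, hexokinase 2, stood at 311, 275 and 278 CPM at 24 h and 124, 129 and 105 at 72 h (log2 change -1.27 ± 0.11, edgeR adjusted p = 3.9e-08). Ldha, lactate dehydrogenase A, was at 930.5, 936 and 1039.6 CPM at 24 h and 681, 664 and 589.8 at 72 h (log2 change -0.59 ± 0.1, edgeR adjusted p = 7.84e-05). Slc2a1, the glucose transporter GLUT1, stood at 78.6, 49 and 208 CPM at 24 h and 31.6, 38.8 and 27 at 72 h (log2 change -1.78 ± 0.41, edgeR adjusted p = 0.00237), again with replicate 3 at 24 h on top, and at 17.7 ± 0.83 CPM in sham. Without that library its log2 fold change was -0.98 and it was still called. Hk3, the hexokinase of leukocytes, rose, at 9.97, 6.83 and 18.9 CPM at 24 h and 38.8, 36.9 and 40.1 at 72 h (log2 change 1.71 ± 0.35, edgeR adjusted p = 0.000797). The other genes that rose were Car12, a carbonic anhydrase (1.99 ± 0.71), and Pfkfb4 (0.77 ± 0.22). Under library totals 12 were lower, and Ldha was not called.

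Vessel genes moved in both directions, and the balance depended on the scaling. Of 22 endothelial genes, 9 were lower and 3 higher, beside 26.1% and 24.4% of all genes. That made 12 called in all, with a median of -0.37. Under library totals 5 were lower and 5 higher with a median of 0.01. The junction protein Pecam1 was at 238, 229.7 and 289.7 CPM at 24 h and 189, 239 and 187 at 72 h (log2 change -0.3 ± 0.12, edgeR adjusted p = 0.0507). Cdh5, VE-cadherin, was at 241, 277 and 310.1 CPM at 24 h and 207, 282 and 189 at 72 h (log2 change -0.29 ± 0.15, edgeR adjusted p = 0.118). Neither was called. Apln, a peptide of sprouting vessel tips, stood at 29.3, 35.5 and 86.1 CPM at 24 h and 19.7, 33.7 and 22.7 at 72 h (log2 change -0.98 ± 0.32, edgeR adjusted p = 0.0202), with overlap. Its receptor Aplnr moved the other way, at 13, 28.8 and 10.00 CPM at 24 h and 63.8, 87.4 and 67.1 at 72 h (log2 change 2.06 ± 0.34, edgeR adjusted p = 0.000152), without overlap. Plvap, a protein of vessel fenestrae, rose by 1.74 ± 0.23, and Flt1, the decoy receptor for VEGF, fell by 1.56 ± 0.15. Of 14 pericyte and smooth muscle genes, 7 were lower and 0 higher, beside the same shares of all genes, with a median of -0.53. Under library totals 3 were lower and 3 higher. Rgs5, a pericyte regulator of G protein signalling, stood at 361, 328 and 248 CPM at 24 h and 315, 306 and 293 at 72 h (log2 change -0.04 ± 0.12, edgeR adjusted p = 0.815). Myh11, smooth muscle myosin, stood at 53.2, 54.2 and 50.3 CPM at 24 h and 21.6, 52.8 and 22.3 at 72 h (log2 change -0.7 ± 0.27, edgeR adjusted p = 0.0405), where replicate 2 at 72 h stayed at the 24 h level. Cnn1, calponin, was at 6.95, 13.8 and 4.49 CPM at 24 h and 9.68, 16.4 and 10.2 at 72 h (log2 change 0.51 ± 0.34, edgeR adjusted p = 0.231). The calls for Apln and Myh11 were lost with only the 6 libraries in the fit. Apln was also lost without replicate 3 at 24 h or replicate 1 or 3 at 72 h (-0.36, -0.83 and -0.91), and Myh11 without any 1 of the 3 at 24 h (-0.69, -0.69 and -0.74) or replicate 1 or 3 at 72 h (-0.48 and -0.5); without replicate 2 at 72 h it was -1.26.

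**Figure D3:**
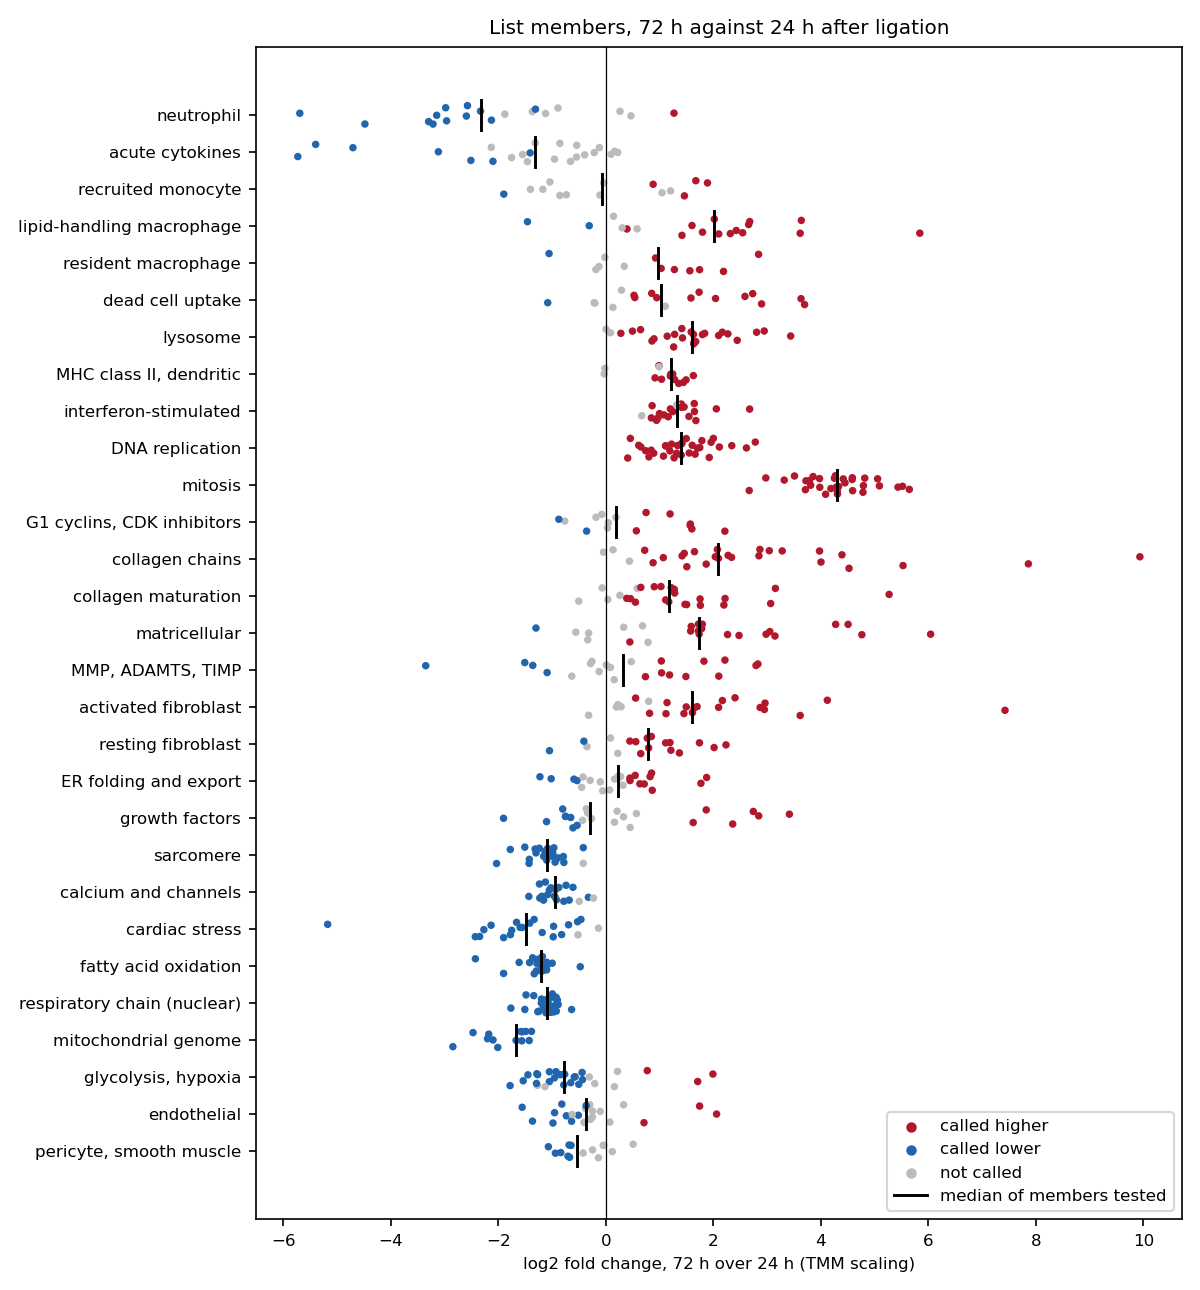
Log2 fold change of each tested member of the 29 lists, 72 h over 24 h, with called genes in red (higher) or blue (lower) and the list median as a bar. The mitosis list has the median furthest to the right, with all 32 members called. The medians of the cardiomyocyte and metabolic lists lie left of 0, although 3 glycolysis and hypoxia-response genes were called higher. The neutrophil list spreads over a wide range.

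Set against sham hearts, the lists followed several courses between the times, given side by side since both contrasts use the same sham libraries. The median over all genes tested was 0.01 at 24 h and 0.03 at 72 h. Neutrophil genes had a median log2 fold change over sham of 6.87 at 24 h and 4.27 at 72 h, and acute cytokines 5.03 and 3.54, so both lists stayed far above sham. Activated fibroblast genes had 0.08 and 2.25, lysosome genes 0.26 and 2.06, and resident macrophage genes 0.08 and 1.54. Behind these low medians at 24 h, 13 of 26 lysosome genes were called above sham and 1 below. Of 23 activated fibroblast genes, 10 were called above sham at 24 h and 6 below. Over all genes the shares at 24 h were 23.7% above and 20.2% below, so that 6 of 23 is near the share of all genes. Collagens were already somewhat up, with 0.71 and 2.92. Sarcomere genes had -0.5 and -1.52, and fatty acid genes -0.65 and -1.81. Cardiac stress genes had 1.56 and -0.04, where the second median lay between 8 of 22 genes called above sham and 7 called below. Both counts are near the 34.2% and 32.2% of all genes called above and below sham at 72 h. For growth factors the median over sham was higher at 72 h (0.84) than at 24 h (0.45) although the median of their direct change was negative, and the same held for the monocyte genes (4.77 and 4.3).

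**Figure D4:**
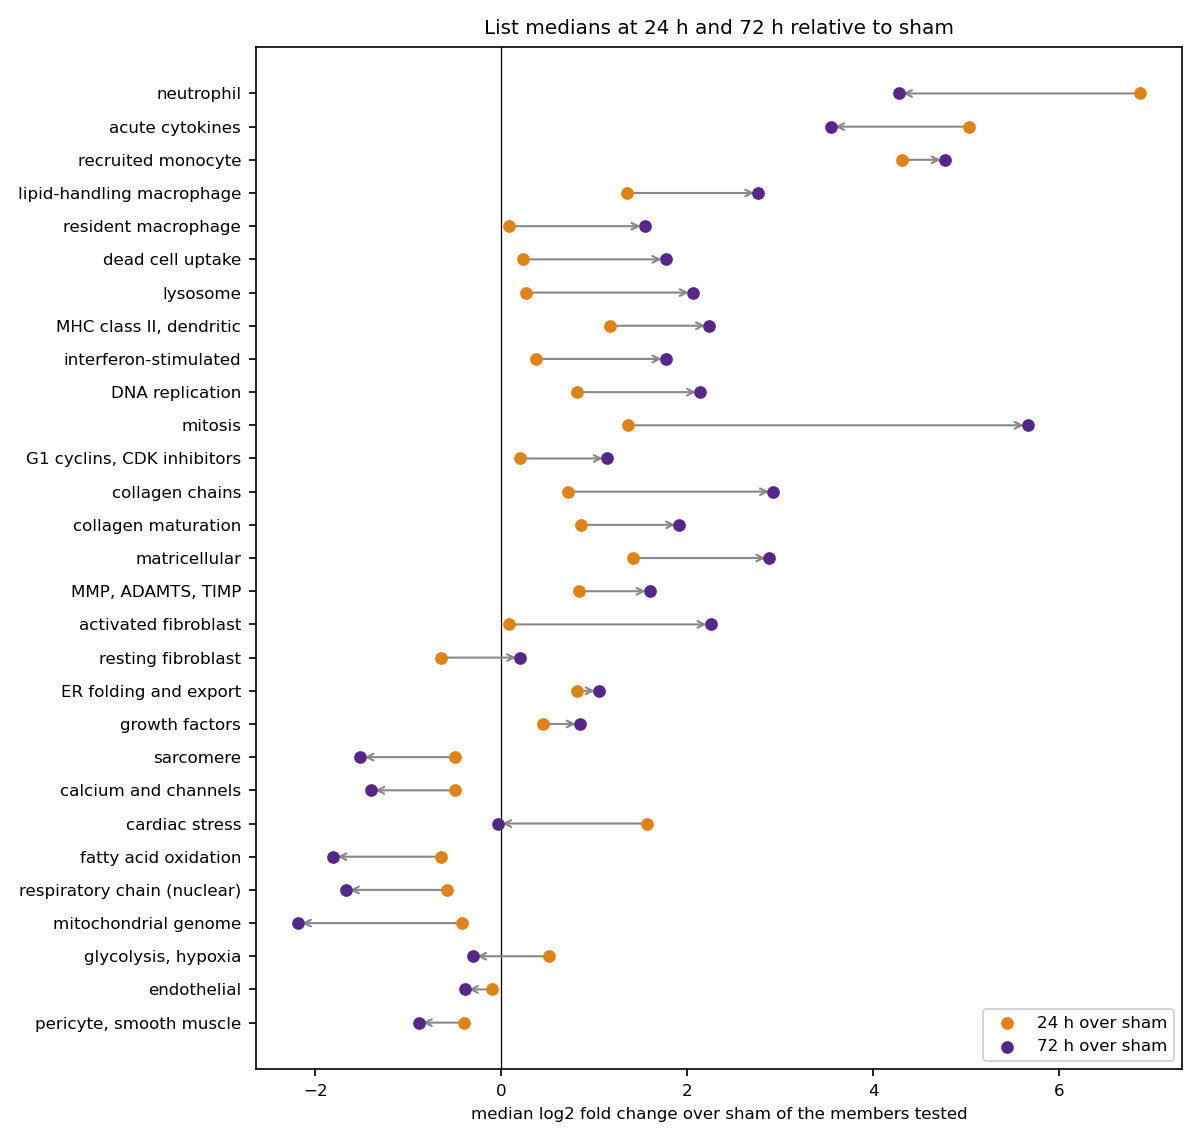
Median log2 fold change over sham of the tested members of each list at 24 h (orange) and 72 h (purple), joined by an arrow from 24 h to 72 h. The mitosis list has the longest arrow, from 1.36 to 5.66. The median of the cardiac stress list moves from 1.56 to -0.04. At 72 h, 8 of its 22 members were called above sham and 7 below, near the 34.2% and 32.2% of all genes.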

How the data were processed

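RNA was sequenced from the hearts of 18 mice in 6 groups of 3; the 3 libraries at 24 h, the 3 at 72 h and the 3 sham libraries are used in the text, and all 18 in the fit. Per the labels' protocols, poly(A) RNA was selected and 1 library was made per mouse. Reads were processed with cutadapt 1.18, HISAT2 2.1.0 and featureCounts on mm10, per the submitters' processing notes; use of strand and of reads with several matches is not given in the sources used here, so overlapping or near-identical genes are uncertain. The authors deposited read counts per gene and FPKM values (counts per gene length and library total). Symbols and positions come from GENCODE M21 (30512 IDs matched, 71 did not).

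Counts were tested with edgeR 4.0.16 in R 4.3.3: filterByExpr (14272 genes removed), TMM scaling, and a quasi-likelihood F test, two-sided, with 1 mean per group over 18 libraries and Benjamini-Hochberg adjustment over 16311 genes. A gene is called at an adjusted p under 0.05. The script was checked on simulated data. FPKM values, as deposited, were used for ratios and orders between genes. No molecular identifiers are described, so the floor of 3 counts covers counting error only. No 2 libraries of a group agreed within sampling noise.

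Named genes were the 8 largest changes each way (called, averaging 50 counts or more over the 6 libraries, groups apart, no predicted symbol); the first 3 genes of each of 29 lists; and the called member of each list, with the same least count, that moved most against its median. One gene that this rule names is not reported here. Of 645 listed genes 636 were tested; Camp, Ltf, Mrgpra2b, Apoc2, Adgrb1, Col2a1, Mmp10, Areg and Sln were not. Members and lists were chosen with earlier results of these data known, and genes named outside the rule were chosen after their values were seen. Alternatives were another scaling (RLE, library totals, no mitochondrial genes), filter, set of libraries, DESeq2 1.42.0, limma 3.58.1 on log2(FPKM + 1) and log2(FPKM + 0.1), a replicate block, and each library left out.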

Additional observations from a re-analysis of the deposited data

How the results depend on the processing

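The number of genes that differed was 8231, and 6648 to 9292 under the 16 alternatives; 7087 to 8475 when 1 library was left out. Genes differing at least 2-fold numbered 3122, and 2741 to 3607 with 1 library left out, but 1749 on log2(FPKM + 1), where the pseudocount shrinks the fold changes of low genes. The share of calls that were higher was 81.5% under library totals and 83.0% and 82.4% on FPKM with pseudocounts of 1 and 0.1, which keep the library totals; TMM and RLE scaling gave 48.4% and 49.8%. Deviations of same-numbered libraries from their group means correlated at 0.25, -0.13 and 0.06, and those of differently numbered ones at -0.24 to 0.18. With 3 libraries behind each mean, these values cannot show whether the replicate numbers pair the samples. With the replicate block 8147 genes were called and 3093 differed at least 2-fold. Under that block 7 neutrophil genes and 3 acute cytokines were lower, in place of 12 and 7. The difference in the mitochondrial share, -11.82 percentage points, ran from -13.71 to -10.58 with 1 library left out. Of the 112 named genes, 83 kept their sign and their side of the threshold under every alternative run, and 13 changed sign under at least 1; none of these 13 was called with all libraries. Under library totals the log2 fold change turned to 0.26 for Timd4, 0.048 for Gsn, 0.25 for Nppa, 0.094 for Pecam1, 0.098 for Cdh5 and 0.36 for Rgs5. On log2(FPKM + 1) it was 0.22 for Il6, 0.077 for Timd4, 0.014 for Gsn, 0.13 for Inhba, 0.27 for Nppa, 0.091 for Pecam1, 0.0896 for Cdh5 and 0.37 for Rgs5. On log2(FPKM + 0.1) it was 0.031 for Csf3r, 0.60 for Il6, 0.19 for Timd4, 0.014 for Gsn, 0.21 for Inhba, 0.27 for Nppa, 0.092 for Pecam1, 0.091 for Cdh5 and 0.37 for Rgs5. With each of the 6 libraries left out in turn it ran from -1.35 to 0.37 for Csf3r, -2.67 to 0.45 for Il1b, -1.08 to 1.32 for Il6, -0.55 to 0.0800 for Timd4, -0.0595 to 0.14 for Ccnd1, -0.077 to 0.57 for Timp1, -0.23 to 0.29 for Mmp3, -0.75 to 0.47 for Inhba, -0.26 to 0.019 for Nppa and -0.19 to 0.084 for Rgs5. The cause of these sign changes was not tested. At this depth genes such as Timd4 and Cdkn2a rest on few counts.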

Other observations

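The clock gene Per2 was named by rule, and 14 clock genes were then read, chosen after its value was seen. Of these, 3 were higher at 72 h and 11 lower, beside 24.4% and 26.1% of all genes. Arntl, which encodes the activator BMAL1, stood at 3.54, 1.63 and 5.41 CPM at 24 h and 24.1, 22.9 and 20.01 at 72 h (log2 change 2.69 ± 0.36, edgeR adjusted p = 1.37e-05); its partners Npas2 (1.91 ± 0.25) and Clock (0.36 ± 0.13) rose as well. Genes that BMAL1 is known to switch on were lower. Dbp stood at 37.7, 64.8 and 29.96 CPM at 24 h and 7.26, 3.75 and 6.78 at 72 h (log2 change -2.9 ± 0.43, edgeR adjusted p = 7.99e-05), and Per1, Per3, Cry2, Tef and Hlf had log2 fold changes of -1.92 ± 0.23, -2.33 ± 0.32, -1.88 ± 0.14, -2.25 ± 0.18 and -2.88 ± 0.27. The groups did not overlap in any of the 14, as was the case for 7588 called genes among all 16311 tested. The labels do not give the hour at which a mouse was killed, so that the time of day and the time after ligation cannot be told apart for these genes.

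Metallothioneins, which bind zinc, were also lower at 72 h. Mt1 stood at 482, 320.0 and 665 CPM at 24 h and 76.5, 67.2 and 71.3 at 72 h (log2 change -2.77 ± 0.2, edgeR adjusted p = 5.41e-09), and Mt2 at 9.88, 5.09 and 15.6 CPM at 24 h and 1.29, 1.25 and 1.02 at 72 h (log2 change -3.08 ± 0.31, edgeR adjusted p = 3.56e-07). Mt1 was above sham at 24 h and below it at 72 h in log2 fold change (2.01 at 24 h and -0.76 at 72 h).

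Several genes outside the lists also rose steeply, though by less than the 8 largest increases named by rule, and were chosen after their values were seen. The monocyte chemokine Ccl8 stood at 0.475, 0.531 and 0.206 CPM at 24 h and 19.2, 12.7 and 17.4 at 72 h (log2 change 5.28 ± 0.34, edgeR adjusted p = 1.06e-09), and the macrophage membrane gene Ms4a7 at 2.59, 4 and 2.37 CPM at 24 h and 90.1, 75.7 and 110.1 at 72 h (log2 change 4.92 ± 0.25, edgeR adjusted p = 2e-10). Mfap4, a microfibril-associated protein, stood at 3.71, 6.76 and 2.47 CPM at 24 h and 163, 138 and 195 at 72 h (log2 change 5.22 ± 0.34, edgeR adjusted p = 1.62e-08), and Sfrp2, a secreted modulator of WNT signalling, at 1.94, 3.5 and 0.928 CPM at 24 h and 54.6, 59.7 and 93 at 72 h (log2 change 4.97 ± 0.37, edgeR adjusted p = 4.82e-08).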
